A study of Mus musculus with 8 samples.

Results

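The effect of rearing in an enriched environment on the mouse olfactory bulb was examined across both air treatments, by comparing the 2 RNA pools of mice from enriched cages with the 2 pools of mice from standard cages. The genes described are those where both enriched pools lay on the same side of both standard pools. Of 21711 probes tested, 8902 met that rule, 4697 with higher and 4205 with lower values in the enriched pools. The rule by itself is met by many probes that differ very little: it held for 41.0% of all probes, 21.6% higher and 19.4% lower, and the accounts of gene groups below are read against these shares. The stricter pattern used below, all 4 enriched arrays above or all below all 4 standard arrays (arrays not overlapping), held for 4.09% of all probes in the higher and 3.43% in the lower direction.

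Male C57BL/6J mice were reared in a standard cage or in an enrichment cage, a larger cage with a running wheel, a small house, wood blocks and tubing, from late gestation to weaning. The study defined housing by that period, and its methods state that conditions stayed the same in the exposure chambers, so the contrast is not limited to rearing. After weaning the mice breathed clean air or air with diesel exhaust at 90 µg/m3 of particles for 8 h a day over 28 days. Olfactory bulbs were taken at 56 days of age, 1 day after the last exposure, and the hour of dissection is not given in the sources used here. The groups were C-C (standard cage, clean air, 7 mice), C-DE (standard cage, diesel exhaust, 7 mice), EE-C (enriched cage, clean air, 8 mice) and EE-DE (enriched cage, diesel exhaust, 9 mice). The RNA of each group was combined into 1 pool and hybridised to 2 one-colour 60-mer microarrays, so the replicate of housing is the pool, with 2 pools on each side and 4 arrays. The 2 arrays of a pool repeat the same RNA, and the variation between mice within a group cannot be seen. Within a group each mouse came from a different dam, and by the study's methods all mice came from 7 standard and 9 enriched rearing cages. The clean-air and exhaust pools of one housing therefore held mice from largely the same dams and cages, and they are not independent replicates of housing. Whole bulb RNA was used, in which fewer cells of a type and less RNA per cell cannot be told apart.

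The 8 arrays were on 1 slide. Arrays of standard pools filled slide column 1 and those of enriched pools slide column 2, so that housing and slide column cannot be told apart in any value below. On 7 arrays 68.0 to 70.6% of noncontrol spots were well above background, against 56.7% on EE-DE 1, whose median background signal was 29 where the others had 21 to 24. No spot was saturated. All 8 listed markers of dopaminergic periglomerular neurons and all 8 of mitral and tufted cells, the output neurons of the bulb, were above background on every array, and so were 7 of 8 markers of forebrain pyramidal neurons. In one corner of EE-C 1 the signals differed from those of the other arrays by a median of -0.133 on the log2 scale, and the 829 spots there were set aside, which left 278 probes without a value on that array. Values are log2 processed signals minus the 75th percentile of the array, so a value of 0 is a bright spot and -5 is close to the background, and levels of different probes are not compared. Results that rest on EE-C 1 or EE-DE 1 are given with and without them for many genes and lists, but not for all.

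Several gene groups are known to follow the activity and the daily schedule of an animal. Circadian clock genes are switched on by the CLOCK and BMAL1 proteins through E-boxes in their promoters, and the products of some of them then shut the pair off again, so that Dbp, Ciart, Nr1d1 and the Per genes peak together while Arntl, which encodes BMAL1, peaks in the opposite part of the day. Immediate early genes such as Fos and Btg2 are transcribed within minutes of neuronal firing and need no new protein. In the olfactory bulb new granule and periglomerular interneurons arrive throughout life from the subventricular zone, and enrichment is widely used to study activity, growth factors and new neurons in the brain.

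Differences by housing were small. The housing difference, the mean of EE-C and EE-DE minus the mean of C-C and C-DE on the log2 scale, had a median of 0.0039 and an SD of 0.111 over all probes, with 95% of probes between -0.205 and 0.225. Of all probes 52.0% were higher and 48.0% lower in the enriched pools by any amount. At an adjusted p under 0.05 by limma, 2 probes were called (0.00921% of those tested), both higher in the enriched pools and both for Dbp, and the share called lower was 0.0%. An unadjusted p under 0.05 was found for 2743 probes, 12.6% of all, of which 1447 were higher (6.66%) and 1296 lower (5.97%). The exact permutation test of 2 pools against 2 cannot give a two-sided p below 0.333, so the test used for single genes was the moderated one, which borrows its error from all probes.

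On 887 probes (4.09%) all 4 enriched arrays lay above all 4 standard arrays, and on 745 (3.43%) all 4 lay below, together 7.52% of the probes tested. Most of these separations were narrow, with a median size of 0.123 among the higher ones and 0.141 among the lower ones. A mean difference of at least 1.5-fold was reached by 68 probes (0.313%), 58 higher (0.267%) and 10 lower (0.0461%). Of these, 7 higher and 1 lower had arrays that did not overlap, and only 2 higher and 1 lower probe kept 1.5-fold whichever array was left out. The air contrast, fitted in the same model, had 4 called probes and 54 probes at 1.5-fold. EE-C minus C-C and EE-DE minus C-DE, which have no pool in common but share dams, rearing cages and slide columns, had a Pearson r of 0.176 over 21711 probes.

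**Figure D1:**
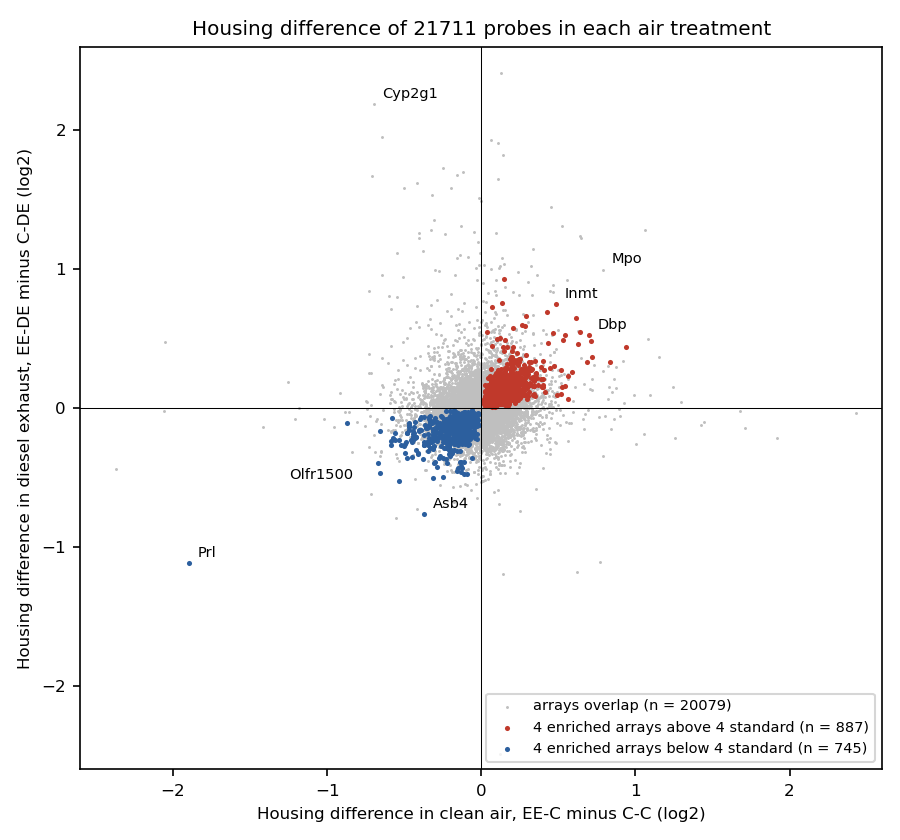
Housing difference in clean air (EE-C minus C-C, x axis) and in diesel exhaust (EE-DE minus C-DE, y axis), both on the log2 scale, 1 point for each of 21711 probes. Red points are the 887 probes higher and blue points the 745 probes lower on all 4 enriched arrays, most of them close to 0, with both Dbp probes in the upper right and Prl in the lower left, and 1 probe lies outside the axes.

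Dbp, which encodes a clock-driven transcription factor of the PAR bZIP family that binds D-boxes, rose in enriched mice. Array values are given here and below in the order C-C 1, C-C 2, C-DE 1, C-DE 2, then EE-C 1, EE-C 2, EE-DE 1, EE-DE 2. For the brighter probe, at chr7:52965461-52965520 of mm9, the standard arrays read 4.01, 4.03, 4.01 and 4.05 and the enriched arrays 4.77, 4.67, 4.49 and 4.62. The groups did not overlap, and the standard arrays differed by far less among themselves than from any enriched array. The housing difference was 0.61 (SE 0.046, 1.53-fold, adjusted p = 0.0337), being 0.70 in clean air and 0.52 in diesel exhaust. The other probe, at chr7:52965322-52965381, read 3.73, 3.70, 3.93 and 3.86 in standard and 4.34, 4.35, 4.28 and 4.43 in enriched pools, a difference of 0.54 (SE 0.0453, 1.46-fold, adjusted p = 0.0353). Both probes were higher in each air treatment. The size of the rise varied little, from 0.53 to 0.69 for the first probe and from 0.45 to 0.64 for the other whichever array or pool was left out, but the call was not: without EE-DE 2 the adjusted p was 0.112 for both, and without EE-C 2 it was 0.0666 and 0.0715. With a pool left out it was 0.0853 and 0.0695 without C-C, 0.102 for the first probe without C-DE and 0.0546 for the other without EE-C. Dbp is also 1 of the genes the study went on to measure by RT-PCR, a choice made on these samples. For Dbp that RT-PCR, on single mice, gave a main effect of diesel exhaust, with C-C below C-DE and EE-DE. The paper names no main effect of rearing for Dbp, reports no interaction, and found no genes different between C-C and EE-C arrays. Here the first probe was higher in EE-C than in C-C by 0.70 and the other by 0.63. The reason for this contrast was not tested.

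Ciart, a repressor of the CLOCK and BMAL1 pair that is listed on the array as Gm129, was higher on all 4 enriched arrays. It read -2.65, -2.66, -2.70 and -2.46 in standard and -2.12, -2.12, -2.14 and -2.05 in enriched pools, with a difference of 0.51 (SE 0.0757, adjusted p = 0.136). The gap between the groups was wider than the spread within either of them. Nr1d2, which encodes the nuclear receptor REV-ERB beta, read 1.76, 1.77, 1.83 and 1.89 against 2.04, 1.98, 2.02 and 2.05, a difference of 0.21 (SE 0.0386, adjusted p = 0.158), and its other probe differed by 0.20. Its partner Nr1d1, REV-ERB alpha, had -0.30, -0.33, -0.20 and -0.14 against -0.20, -0.05, 0.01 and -0.11, a difference of 0.15 (adjusted p = 0.286) with overlapping arrays. Of these 3 genes none passed the test.

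The promoters of Dbp and Ciart, the 2 clock genes with the largest differences, are shown because E-boxes are where CLOCK and BMAL1 are known to bind, and that of Per3 because it held D-boxes, the element Dbp binds. Each is the 250 bases before the transcription start in RefSeq (GRCm38.p6), with capitals for the E-box CACGTG or the D-box TTATGTAA on either strand.
Dbp: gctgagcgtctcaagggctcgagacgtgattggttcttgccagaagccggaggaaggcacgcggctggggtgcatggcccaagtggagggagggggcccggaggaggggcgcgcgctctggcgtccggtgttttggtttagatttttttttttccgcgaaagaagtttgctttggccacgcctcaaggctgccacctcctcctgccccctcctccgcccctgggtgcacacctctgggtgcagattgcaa
Ciart: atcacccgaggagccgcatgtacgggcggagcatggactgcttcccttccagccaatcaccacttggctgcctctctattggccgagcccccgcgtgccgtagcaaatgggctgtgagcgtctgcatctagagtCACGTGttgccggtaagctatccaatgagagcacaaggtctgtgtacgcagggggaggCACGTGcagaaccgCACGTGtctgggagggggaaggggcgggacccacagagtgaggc
Per3: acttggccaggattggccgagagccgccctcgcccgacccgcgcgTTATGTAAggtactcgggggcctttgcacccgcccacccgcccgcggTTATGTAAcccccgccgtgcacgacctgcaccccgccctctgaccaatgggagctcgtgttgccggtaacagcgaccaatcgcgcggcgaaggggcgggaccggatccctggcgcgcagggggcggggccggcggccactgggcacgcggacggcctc
The Dbp stretch is chr7:45704997-45705246 on the + strand and held neither motif. That of Ciart, chr3:95882229-95882478 on the - strand, held 3 E-boxes, and that of Per3, chr4:151044666-151044915 on the - strand, held 2 D-boxes. Among 32851 promoters of the same length 6.02% held the E-box and 0.819% the D-box. Tef, Per1 and Arntl have 2 listed starts each: each Tef window held 1 E-box, and 1 of the Per1 windows did. The window of Cry1 held 1, and those of Nr1d1, Nr1d2 and Arntl none. Per3 was the only gene found whose window held a D-box. The E-box reads the same on both strands, the D-box was looked for on both, and a missing match says only that these letters are not in this window. Promoters were found for 22 of 25 genes looked for.

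All 10 genes of the list of clock genes in phase with Dbp were measured, and all 10 had higher values in the enriched pools, 6 of them in both enriched pools against both standard pools. One gene, Dbp, passed the test, 5 had an unadjusted p under 0.05, and 3 had arrays that did not overlap. The median difference of the list was 0.11, 0.08 in clean air and 0.12 in diesel exhaust, beside 0.0039 for all probes. The summed linear signal of the list was 103 to 107.1 on the standard and 115 to 120 on the enriched arrays, so the groups did not overlap. Dbp, at 16.1 to 16.5 against 22.4 to 27.2 units, made up most of that gap, and the sums without it were 87.1 to 90.8 and 91.0 to 92.9. The members other than Dbp, Ciart, Nr1d2 and Nr1d1 differed by 0.12 (Per3), 0.11 (Per1), 0.05 (Bhlhe41), 0.04 (Per2), 0.04 (Tef) and 0.03 (Hlf), all with overlapping arrays. Tef and Hlf belong to the PAR bZIP family with Dbp. Per1 had an adjusted p of 0.299 and Per3 of 0.586.

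Of the 5 clock genes in antiphase to Dbp, 4 had lower values and 1 had a higher value in enriched mice, with a median difference of -0.08, which was -0.01 without EE-C 1 and -0.16 without EE-C 2. Arntl, which encodes BMAL1, read 1.25, 1.21, 1.27 and 1.28 in standard and 0.90, 1.06, 1.07 and 0.98 in enriched pools. Each enriched array was below each standard array, with a difference of -0.25 (SE 0.0385, adjusted p = 0.138). Cry1, a repressor of the clock, differed by -0.21 (adjusted p = 0.425) with overlapping arrays, and by -0.12 without EE-DE 1, Nfil3, a repressor at D-boxes, by -0.08 (-0.0071 without EE-C 1), Clock by -0.01 and Npas2, a relative of Clock, by 0.03. None of the 5 passed the test. Over both clock lists, the genes with arrays that did not overlap were Dbp, Ciart and Nr1d2 above and Arntl below.

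**Figure D2:**
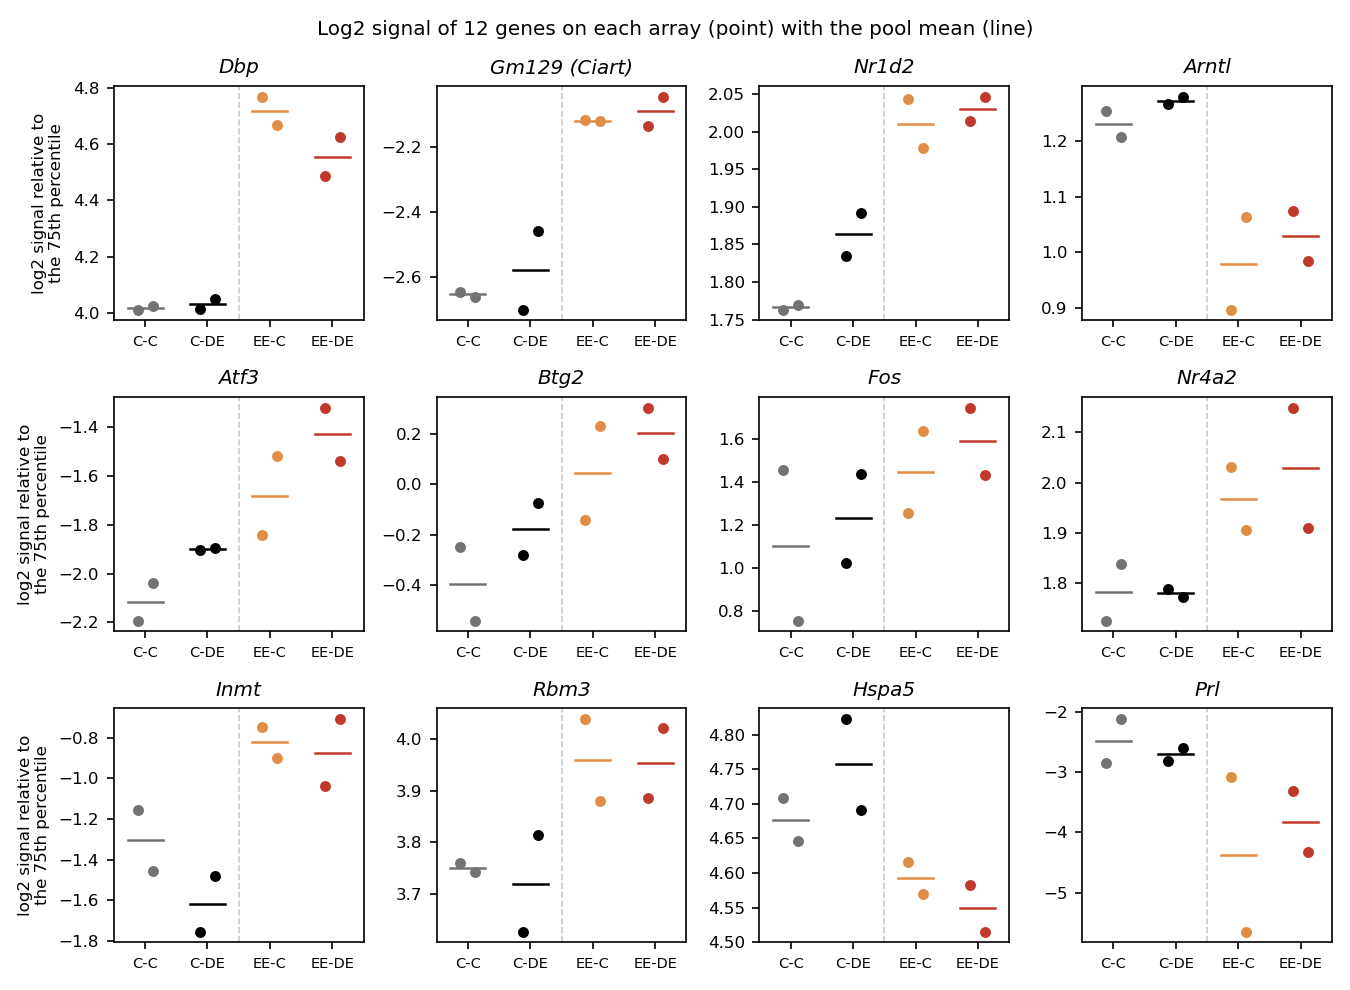
Values of 12 genes on each array (y axis, log2 processed signal minus the array's 75th percentile), with points for the 2 arrays of each pool and a line at the pool mean, and the 4 groups along the x axis. Dbp, Gm129 (Ciart), Nr1d2, Atf3, Inmt and Rbm3 lay higher and Arntl, Hspa5 and Prl lower on every enriched array, whereas the points of Btg2 and Fos overlapped.

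Immediate early genes, the transcripts that follow neuronal firing, had mostly higher values in enriched mice, but none passed the test and the arrays of most overlapped. Of 18 listed genes 16 were measured (not Egr3 and Nr4a3), 14 were higher and 2 lower, and the median difference was 0.21, with 0.18 in clean air and 0.22 in diesel exhaust. Both enriched pools were above both standard pools for 11 of the 16 and below for 2, and 13 had an unadjusted p under 0.05. Arrays did not overlap for 2 genes, Atf3 and Nr4a2. The summed signal of the list was 88.3 to 107.3 on the standard and 93.7 to 131 on the enriched arrays, with EE-DE 1 highest. The list's median was 0.11 without EE-DE 1, 0.13 without C-C 2 and 0.13 without the EE-DE pool, so the size of the difference rested in part on EE-DE 1, the array with the fewest spots well above background, and on C-C 2.

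Atf3, a stress-inducible transcription factor of the CREB family, read -2.19, -2.04, -1.91 and -1.90 in standard and -1.84, -1.52, -1.32 and -1.54 in enriched pools, a difference of 0.45 (SE 0.0647, adjusted p = 0.124). The lowest enriched array, EE-C 1, was just above the highest standard array. Btg2, an antiproliferative gene induced by activity, read -0.25, -0.54, -0.28 and -0.07 against -0.14, 0.23, 0.30 and 0.10, with a difference of 0.41 (SE 0.0466, adjusted p = 0.0883). Fos, a subunit of the AP-1 transcription factor, read 1.46, 0.75, 1.02 and 1.44 against 1.26, 1.64, 1.75 and 1.44, a difference of 0.35 (SE 0.0378, adjusted p = 0.0883). For both Btg2 and Fos the groups overlapped, with EE-C 1 among the standard arrays, and the 2 C-C arrays of Fos, hybridised with the same RNA, stood further apart than the housing means. Without C-C 2 the difference of Fos was 0.18. The small standard error of Fos comes from housing differences that were alike in the 2 airs and does not hold the spread between arrays of 1 pool.

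Nr4a2, an orphan nuclear receptor that also marks dopaminergic neurons of the bulb, read 1.73, 1.84, 1.79 and 1.77 in standard and 2.03, 1.91, 2.15 and 1.91 in enriched pools, a difference of 0.22 (SE 0.0377, adjusted p = 0.149). Its other probe differed by 0.21 with overlapping arrays. Fosb differed by 0.31, Egr4 by 0.26, Arc by 0.24, Dusp1 by 0.23, Nr4a1 by 0.21 and Ier2 by 0.19, with adjusted p from 0.138 for Arc to 0.378 for Ier2. Junb and Egr1 differed by 0.12 each, Egr2 by 0.10 and Npas4 by 0.04. The exceptions were Klf4 at -0.05 and Homer1 at -0.10. The list's summed signal was 131 on EE-DE 1, 119 on EE-C 2, 101 on EE-DE 2 and 93.7 on EE-C 1. Fosb likewise read 0.27 on EE-C 1, below every standard array except C-C 2, but 0.99 on EE-DE 1. Nr4a2 did not follow that order, with EE-C 1 above EE-C 2.

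Outside these lists, the largest differences among genes with higher values on all 4 enriched arrays included Inmt, which encodes indolethylamine N-methyltransferase. Its probe at chr6:55120770 (start, mm9) read -1.16, -1.46, -1.76 and -1.48 in standard and -0.75, -0.90, -1.04 and -0.71 in enriched pools. The difference was 0.62 (SE 0.0731, adjusted p = 0.0883), being 0.48 in clean air and 0.75 in diesel exhaust. Tnfrsf14, a receptor of the tumour necrosis factor family, read -2.42, -2.06, -2.19 and -2.33 against -1.99, -1.57, -1.77 and -1.66, a difference of 0.50 (SE 0.0695, adjusted p = 0.108). Both genes were separated on all arrays by gaps smaller than the spread within a housing group.

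The other higher genes of this kind were E030025P04Rik with a difference of 0.69 (adjusted p = 0.225), Klb, the co-receptor of the hormone FGF21, with 0.60 (0.235), Ctrc, a chymotrypsin of the pancreas, with 0.59 (0.199), Otog, a protein of the inner ear, with 0.59 (0.228), Fam170b with 0.56 (0.266) and Nfe2, an erythroid transcription factor, with 0.54 (0.309). Gm5887, Ptprg, 9130019O22Rik and A730020M07Rik had differences from 0.48 to 0.54. Several of these rested in part on 1 array: without C-C 2 the differences of E030025P04Rik, Otog and 9130019O22Rik were 0.43, 0.39 and 0.26, and without EE-DE 1 those of Ptprg and A730020M07Rik were 0.25 and 0.21. The values of Klb ran from -5.05 to -4.64 on standard and from -4.37 to -4.06 on enriched arrays, and those of Nfe2 from -5.39 to -4.99 and from -4.91 to -4.34. E030025P04Rik (-5.57 to -4.43 and -4.35 to -3.97) and Gm5887 (-4.95 to -4.73 and -4.46 to -4.01) were similarly dim. Fam170b (-5.1 to -4.7 and -4.6 to -4.1) was too, and Ctrc (-4.52 to -4.31 and -4.11 to -3.62) was a little brighter. Levels this low are near the background of the arrays. Other probes of the same gene did not share the difference for Ptprg (-0.04 and -0.11) and for 9130019O22Rik (-0.09), and EE-DE 1 read -1.03 for Ptprg where the other enriched arrays had -2.29 to -2.17.

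The largest lower value was that of Prl, which encodes the pituitary hormone prolactin. Its probe at chr13:27156972 (start, mm9) read -2.84, -2.11, -2.82 and -2.59 in standard and -3.09, -5.65, -3.32 and -4.32 in enriched pools. All enriched arrays were below all standard arrays, but the 2 arrays of the EE-C pool, hybridised with the same RNA, stood far apart. The difference was -1.50 (SE 0.173, adjusted p = 0.0883), being -1.89 in clean air and -1.11 in diesel exhaust, and it ranged from -2.15 to -0.86 when 1 array or 1 pool was left out, with -0.86 without EE-C 2. Olfr1500, an odorant receptor gene at chr19:13901950 (start, mm9), read -0.81, -1.43, -1.40 and -1.17 against -1.64, -1.91, -1.74 and -1.76, a difference of -0.56 (SE 0.0689, adjusted p = 0.0883).

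Other lower genes with arrays that did not overlap were Asb4, a subunit of a ubiquitin ligase, at -0.57 (adjusted p = 0.2), Gm11159 at -0.53 (0.188), Nlrp5, a gene of the oocyte, at -0.53 (0.211), Cftr, a chloride channel, at -0.49 (0.35), B020031M17Rik at -0.43 (0.14) and A430033K04Rik at -0.42. The last lacked its EE-C 1 value, and its other probes differed by -0.01 and -0.01. Notch1, Rhox8, Mmp23, Spatc1, Igh-VJ558, Gm6507 and Trpm1 followed at -0.41 to -0.39. Notch1, a receptor of cell fate, read -0.94, -0.94, -1.17 and -1.0 in standard and -1.74, -1.47, -1.29 and -1.21 in enriched pools (adjusted p = 0.231). Rhox8, a homeobox gene, read 7.50, 7.30, 7.0 and 7.20 against 6.78, 6.85, 6.87 and 6.85 (adjusted p = 0.149), and Trpm1, an ion channel, read 0.81, 0.47, 0.39 and 0.50 against 0.06, 0.08, 0.21 and 0.25 (adjusted p = 0.178).

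Probes for Notch1, Rhox8 and Trpm1, with B020031M17Rik, make 4 of the 15 lower genes named above, and they shared a feature of sequence that was noticed after their values were seen: a tandem repeat of AAG. The 60-base probe sequences of the first 3 are printed as the array files give them, with the repeat, read in any frame, in capitals.
Notch1: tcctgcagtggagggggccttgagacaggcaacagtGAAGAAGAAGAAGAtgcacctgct
Rhox8: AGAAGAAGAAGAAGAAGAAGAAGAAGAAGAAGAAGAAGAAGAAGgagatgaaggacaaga
Trpm1: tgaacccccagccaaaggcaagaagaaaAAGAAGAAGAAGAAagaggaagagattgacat
The repeat covered 14 letters in Notch1, 44 in Rhox8 and 14 in Trpm1. Of 23 tested probes with at least 12 letters of AAG repeat, 22 had lower values in the enriched pools, with a median difference of -0.31 and a range of -0.446 to 0.0275. Arrays did not overlap for 12 of them, all lower. The median value of these 23 probes, each set against its own mean, was 0.297 and 0.107 on the C-C arrays, 0.0158 and 0.153 on the C-DE arrays, -0.231 and -0.166 on the EE-C arrays and -0.131 and -0.0469 on the EE-DE arrays, so that every enriched array was below every standard array with C-C 1 highest and EE-C 1 lowest.

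Neighbouring repeats differed too. All 21 probes with an AG repeat were lower (median -0.20), as were 12 of 14 with an AGG repeat (median -0.18), while 11 of 12 with a CT repeat, the complement of AG, were higher (median 0.16). Repeats of AC (43 probes, median -0.018) and GT (88 probes, median -0.028) were close to the median of all probes. Where genes with an AAG repeat probe had other probes without it, 5 of 12 such probes were lower, with a median difference of 0.0266 and a range of -0.303 to 0.126. In Rhox8 the other probe differed by 0.09, and in Ermn, a myelin gene, the repeat probe differed by -0.37 and the other by 0.13. The lower values of Notch1, Rhox8, Trpm1 and B020031M17Rik were therefore shared with probes of unrelated genes that hold the same letters, and the part of the repeat, the slide column or the RNA in them was not tested.

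Chaperones had slightly lower values in enriched mice. Of 15 measured genes of the list of heat shock and ER chaperones (Hspa1b was not measured), 11 were lower and 4 higher, with a median of -0.09 (but -0.04 in clean air and -0.03 in diesel exhaust), and both enriched pools were below both standard pools for 7 and above for 3. None passed the test. Hspa5, the main chaperone of the endoplasmic reticulum, known as BiP, read 4.71, 4.65, 4.82 and 4.69 in standard and 4.62, 4.57, 4.58 and 4.51 in enriched pools, a difference of -0.15 (SE 0.0402, adjusted p = 0.258). Pdia6, a disulfide isomerase of the same compartment, read 4.41, 4.44, 4.55 and 4.50 against 4.38, 4.38, 4.30 and 4.31, a difference of -0.13 (adjusted p = 0.328), and its other probe differed by -0.04. Hsp90b1, the ER member of the HSP90 family, read 4.89, 4.92, 4.96 and 4.91 against 4.81, 4.81, 4.81 and 4.79, a difference of -0.11 (adjusted p = 0.284). These 3 genes had enriched arrays below all standard arrays.

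The promoters of these 3 are printed because they share the ER stress element, the sequence known to bind ATF6 with NF-Y when unfolded protein collects in the ER. Capitals mark the fixed letters of the element, CCAAT and CCACG with 9 bases of any kind between them, on either strand, in the 250 bases before the start (RefSeq, GRCm38.p6).
Hspa5: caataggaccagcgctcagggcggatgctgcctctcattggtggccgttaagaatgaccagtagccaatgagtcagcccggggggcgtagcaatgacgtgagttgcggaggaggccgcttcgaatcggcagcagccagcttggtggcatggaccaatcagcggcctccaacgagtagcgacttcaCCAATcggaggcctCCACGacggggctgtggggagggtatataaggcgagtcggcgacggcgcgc
Pdia6: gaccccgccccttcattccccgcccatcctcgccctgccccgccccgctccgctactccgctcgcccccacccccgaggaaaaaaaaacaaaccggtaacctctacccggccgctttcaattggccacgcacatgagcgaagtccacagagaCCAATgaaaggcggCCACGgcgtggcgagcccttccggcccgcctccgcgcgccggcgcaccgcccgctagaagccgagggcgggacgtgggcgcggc
Hsp90b1: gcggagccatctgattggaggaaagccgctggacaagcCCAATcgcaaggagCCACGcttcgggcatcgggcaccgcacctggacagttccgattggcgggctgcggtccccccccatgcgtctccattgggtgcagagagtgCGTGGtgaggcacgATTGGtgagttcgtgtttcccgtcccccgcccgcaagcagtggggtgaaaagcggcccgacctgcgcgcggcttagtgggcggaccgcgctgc
Hspa5 (chr2:34771840-34772089, + strand) and Pdia6 (chr12:17266339-17266588, + strand) held 1 match each and Hsp90b1 (chr10:86705445-86705694, - strand) held 2, beside 0.113% of 32851 promoters, or 37, that held any. No other chaperone promoter was searched, so it is not known whether chaperones without lower values share the element. A match is a description of the letters and not of binding. Calr, another ER chaperone, differed by -0.14, Hyou1 by -0.14, Sdf2l1 by -0.09, Creld2 by -0.09 and Manf by -0.02, whereas Pdia4 differed by 0.06. In the cytosol Hsph1 differed by -0.09, Hspa8 by -0.07, Hspa1a by -0.02, Hsp90aa1 by 0.02 and Hspb1 by 0.04. Dnajb1, a co-chaperone of the cytosol, was the exception with arrays that did not overlap in the other direction, at 4.12, 4.15, 4.14 and 4.11 against 4.36, 4.22, 4.17 and 4.17, a difference of 0.10 (adjusted p = 0.354).

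Both cold-induced RNA-binding proteins of the list, whose transcripts follow body temperature and the daily cycle, were higher on all 4 enriched arrays. Rbm3 read 3.76, 3.74, 3.63 and 3.81 in standard and 4.04, 3.88, 3.89 and 4.02 in enriched pools, a difference of 0.22 (SE 0.0336, adjusted p = 0.136). Cirbp read 4.44, 4.51, 4.56 and 4.51 against 4.80, 4.58, 4.68 and 4.71, a difference of 0.19 (SE 0.0346, adjusted p = 0.158). The summed signal of the pair was 35.3 to 36.9 on the standard and 38.6 to 44.3 on the enriched arrays. Neither passed the test, and the probes of Rbm3 disagreed, with another at 0.22 and overlapping arrays and another at -0.17.

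Genes known to be induced by glucocorticoids had a median difference of 0.08, with members from -0.07 to 0.51, the highest with overlapping arrays. All 15 were measured, 12 were higher and 3 lower, both enriched pools were above both standard pools for 9 and below for 1, and 4 had arrays that did not overlap. Sgk1, a kinase that regulates ion transport, read 1.42, 1.47, 1.41 and 1.53 in standard and 1.84, 1.64, 1.59 and 1.63 in enriched pools, a difference of 0.22 (adjusted p = 0.188). Sult1a1, a sulfotransferase, differed by 0.22 (adjusted p = 0.175), and its other probe by 0.17. Ddit4, an inhibitor of mTOR, differed by 0.13 (adjusted p = 0.305) and Nfkbia, the inhibitor of NF-kB, by 0.12 (adjusted p = 0.285). The classical targets Fkbp5, Tsc22d3 and Zbtb16 differed by 0.06, 0.03 and -0.07, and Per1 is in this list and in that of the clock. Without EE-C 1 the median of the list was 0.04.

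Interferon-responsive genes had 16 higher and 2 lower values among 18 measured, a median of 0.17, and no call. The difference was unequal between pools: both enriched pools were above both standard pools for only 4 of the 18, beside 21.6% of all probes, and the median ran from 0.0035 without the C-C pool to 0.34 without the C-DE pool. The summed signal was 16.6 to 24.2 on the standard and 19.5 to 27.3 on the enriched arrays, with overlap. Bst2, the antiviral protein tetherin, read 0.18, 0.02, 0.23 and 0.38 against 0.45, 0.42, 0.67 and 0.38, a difference of 0.28 (adjusted p = 0.149). Psmb8, a subunit of the immunoproteasome, differed by 0.23 (adjusted p = 0.195), Ifit3 by 0.34 (adjusted p = 0.161, and 0.20 without C-DE 1) and Ifi27l2a by 0.30 (adjusted p = 0.0883), the last pair with overlapping arrays. C-DE 2 was high in this list, with 1.45 for Ifit3 against 0.58 to 0.91 on the other standard arrays.

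Genes of MHC and antigen presentation were higher for 10 of 11, with a median of 0.09 and 7 with both enriched pools above both standard pools. Cd74, the invariant chain of class II molecules, differed by 0.19 (adjusted p = 0.236), with -0.05, -0.13, -0.04 and -0.03 on the standard and 0.04, 0.04, 0.39 and 0.03 on the enriched arrays, so that EE-DE 1 stood above the rest, and without it the difference was 0.099. H2-Aa and H2-Ab1, class II genes, differed by 0.27 and 0.20, and by 0.15 and 0.093 without EE-DE 1. Without EE-C 1 and EE-DE 1 together the median of the list was 0.0086. Microglia markers had 11 of 15 higher and a median of 0.04, which turned to -0.02 with another background correction (normexp). Among them Tyrobp, an adaptor of microglial receptors, read 1.83, 1.76, 1.78 and 1.74 in standard and 1.90, 1.90, 1.89 and 1.88 in enriched pools, a difference of 0.12 (adjusted p = 0.294) with arrays that did not overlap.

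Markers of other cells that a dissected bulb can carry had mostly higher means in the enriched pools, but none was called. All 9 measured markers of neutrophils and marrow, of 12 listed, had higher values in enriched pools, with a median of 0.52 (0.27 in clean air and 0.81 in diesel exhaust), but the arrays overlapped for every one. Mpo, myeloperoxidase, read -3.35, -3.81, -4.29 and -4.04 against -1.96, -3.62, -2.68 and -3.66, a difference of 0.89 (SE 0.11, adjusted p = 0.0883, and 0.48 without EE-C 1), and Camp, the antimicrobial peptide cathelicidin, differed by 0.48 (adjusted p = 0.0883). The list was high on EE-C 1 and EE-DE 1, with a summed signal of 3.05 to 5.73 on the standard and 3.96 to 10.3 on the enriched arrays, and its median was 0.0026 without those 2 arrays. Olfactory mucosa markers had 10 of 11 measured genes higher and a median of 0.66, but with opposite signs in the 2 airs, -0.32 and 1.59. Cyp2g1, a cytochrome of olfactory mucosa, differed by -0.69 in clean air and 2.19 in diesel exhaust. Only 1 of those 11 genes had both enriched pools on the same side of both standard pools, and the summed signal was 4.97 to 15.6 on the standard and 7.22 to 18.5 on the enriched arrays.

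The same held for olfactory sensory neurons, whose axons enter the bulb: 11 of 12 were higher, with a median of 0.14, -0.08 in clean air and 0.30 in diesel exhaust, and -0.01 without the C-DE pool. Red blood cell markers had 5 of 6 higher and a median of 0.13, which was -0.0050 without EE-C 1 and EE-DE 1 together. The part of neutrophil, mucosal, sensory neuron or blood RNA in the differences of the immediate early, interferon and MHC lists was not tested.

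**Figure D3:**
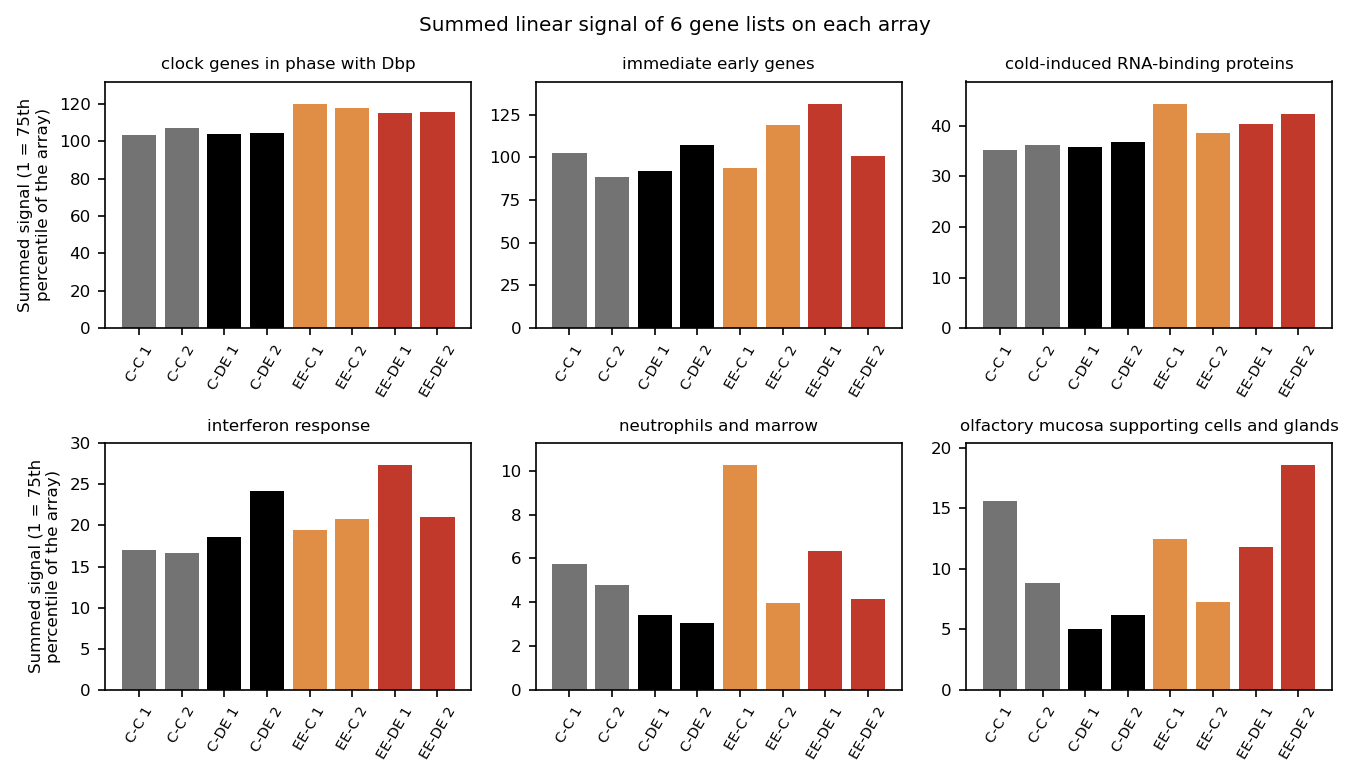
Summed linear signal, in units of the array's 75th percentile, of the measured genes of 6 lists on each of the 8 arrays (bars from 0). The clock genes in phase with Dbp and the cold-induced pair were higher on every enriched array, whereas the immediate early, interferon, neutrophil and mucosa sums overlapped between housing groups.

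Growth factors and their receptors, which are often studied after enrichment, were not called. Of 14 measured genes of the neurotrophin list 4 were higher and 10 lower, with a median of -0.03. Ngfr, the low-affinity neurotrophin receptor, was the only one with arrays that did not overlap, at -1.06, -1.04, -1.05 and -1.04 in standard and -0.88, -0.93, -0.91 and -0.95 in enriched pools, a difference of 0.13 (adjusted p = 0.395). Bdnf, brain-derived neurotrophic factor, differed by -0.07 (adjusted p = 0.583, and -0.04 without C-C 2), Vgf, a peptide induced by it, by -0.12 (adjusted p = 0.293), and Vegfa by -0.08 (-0.05 without C-DE 2). The other probe of Vegfa differed by 0.08. Markers of neuroblasts and immature neurons had 6 of 15 higher and 9 lower (median -0.03), with Prokr2, a receptor that guides neuroblasts into the bulb, at -0.16 (-0.09 without C-DE 1), Igfbpl1 at -0.13 and Dcx, doublecortin, at -0.08. Proliferation genes had 10 of 13 higher and 3 lower (median 0.05), with Mki67 at 0.20 (adjusted p = 0.364). With an array or pool left out the neuroblast median ran from -0.04 to 0.0025 and that of proliferation from 0.00015 to 0.11.

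Neurons of the bulb differed little. Dopaminergic periglomerular markers had a median of 0.03, with 6 of 8 higher. Th, the rate-limiting enzyme of dopamine synthesis, differed by 0.02 (5.49, 5.46, 5.44 and 5.51 against 5.51, 5.50, 5.50 and 5.49), and Etv1, a transcription factor of these cells, by -0.12 with arrays that did not overlap. GABAergic interneuron markers had 5 higher and 5 lower (median -0.01), and Gad2, a GABA-synthesising enzyme, differed by -0.06 with arrays that did not overlap, but by 0.0053 with normexp. Mitral and tufted cell markers had 5 of 8 higher (median 0.01), with Reln, reelin, at -0.13. Forebrain pyramidal markers, which would show adjoining cortex, had 3 of 7 higher and a median of -0.00079. Synapse genes had 6 higher and 11 lower (median -0.03). Dlg4, the postsynaptic scaffold PSD-95, read 2.17, 2.12, 2.08 and 2.09 against 2.01, 1.77, 1.98 and 1.93, a difference of -0.19 (adjusted p = 0.198), while Stx1a, a presynaptic fusion protein, differed by 0.09 with arrays that did not overlap. The medians of the interneuron, mitral and tufted, pyramidal, synapse and neuropeptide lists changed sign when some array or pool was left out. Neuropeptides had 7 of 13 higher (median 0.01), with Cartpt at 0.12 and arrays that did not overlap.

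Glial, vascular and housekeeping lists were close to the median of all probes. Astrocyte markers had 6 of 13 higher (median -0.01), olfactory ensheathing glia 3 of 5 (0.07), myelin genes 8 of 15 (0.02), brain endothelium 8 of 14 (0.02), vascular mural cells 3 of 7 (-0.02) and bone 5 of 8 (0.04). Cnp, a myelin enzyme, differed by 0.09, Flt1, a receptor of VEGF, by -0.10 and Tek, the angiopoietin receptor, by -0.08, each with arrays that did not overlap. Meninges and fibroblast markers had 9 of 12 higher (median 0.11), with both enriched pools above both standard pools for 6, and choroid plexus 4 of 6 (median 0.12, but -0.09 without the C-DE pool). Of the 12 lists in this paragraph, the medians of ensheathing glia, meninges and Y chromosome genes kept their sign whichever array or pool was left out. Those of the other 9 did not, and those of myelin and mural cells also turned with normexp. Targets of the aryl hydrocarbon receptor and Nrf2, which respond to combustion products and oxidants, had 5 of 10 higher (median 0.01), with Txnrd1, thioredoxin reductase, at -0.07 and arrays that did not overlap. Respiratory chain genes had 9 of 15 higher (median 0.02) and cytosolic ribosome genes 10 of 14 (median 0.02), with Uqcrc1, a core protein of complex III, at 0.13 and Rpl13 at 0.10, both with arrays that did not overlap. Of the 4 Y chromosome genes, present in all male pools, 3 were higher (median 0.08), where Kdm5d stood out on EE-DE 1 only.

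**Figure D4:**
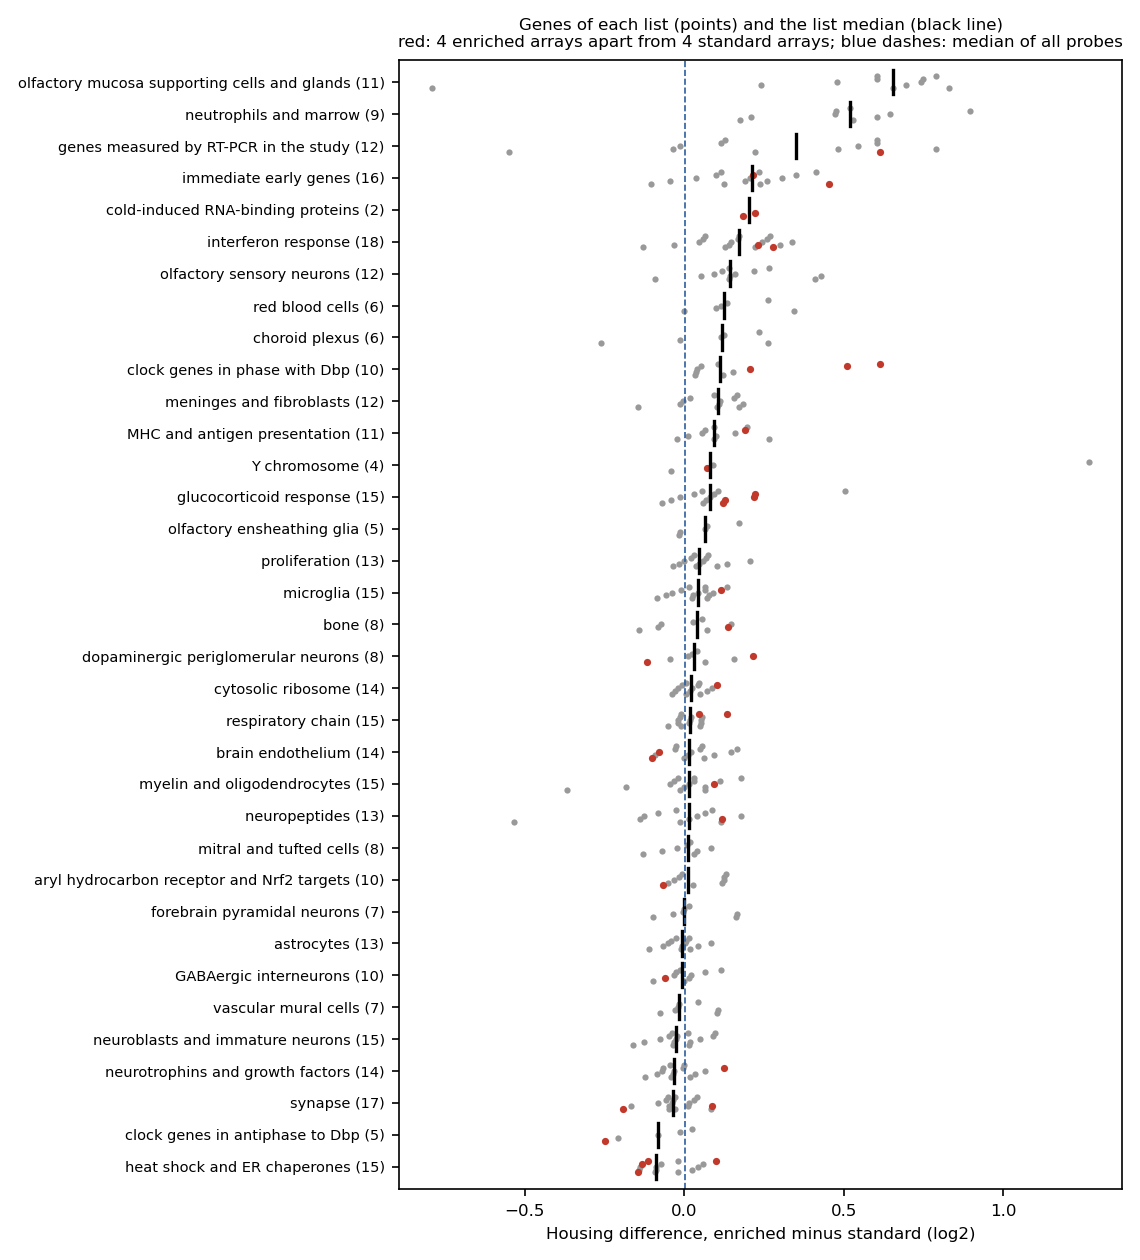
Housing difference (x axis, log2 scale) of each measured gene, 1 row for each of 35 gene lists, with a line at each list's median and a dashed line at the median of all probes, 0.0039. Red points are genes whose enriched and standard arrays did not overlap. The medians farthest to the right are those of the olfactory mucosa (0.66), neutrophil (0.52), RT-PCR (0.35), immediate early (0.21), cold-induced (0.20) and interferon (0.17) lists. Those of the mucosa and RT-PCR lists were of opposite signs in the 2 airs. The medians farthest to the left are of the chaperone (-0.09) and antiphase clock (-0.08) lists.

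The study chose 11 genes from these arrays for RT-PCR, so their values are no independent evidence, and used Gapdh as the reference, which makes a list of 12. Dbp was the only one called or with arrays that did not overlap. The list's median, 0.35, was -0.09 in clean air and 0.28 in diesel exhaust. With an array or pool left out it ran from 0.03 to 0.44. The differences of Cyp2f2 (0.79), Aqp3 (0.61), Krt18 (0.60), Mslnl (0.54) and Umodl1 (0.48) were means of opposite signs, lower in EE-C than in C-C and higher in EE-DE than in C-DE. Without EE-C 1 they were 0.45, 0.29, 0.39, 0.23 and 0.17, and without the C-DE pool those of Aqp3, Krt18, Mslnl and Umodl1 were below 0. The others were Fam13c 0.22, Cxcl10 0.13, Gapdh 0.11, Chmp4b -0.01, Sdad1 -0.04 and Nr1i3 -0.55. The other probe differed by -0.35 for Sdad1 and by -0.04 for Fam13c, and the other 2 of Chmp4b by -0.11 and -0.03. The value of Gapdh is that of 1 probe, which differed by 0.062 without EE-C 1, and its other 7 probes differed by -0.04 to 0.08. Cxcl10 differed by -0.05 without C-DE 1. Nr1i3, a nuclear receptor for foreign compounds, differed by -0.96 in clean air and -0.14 in diesel exhaust (adjusted p = 0.271).

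Where a gene has more than 1 probe, agreement between probes is a check that does not depend on a single spot, and the genes named here were chosen after their values were seen. Of 4265 such genes, all probes were higher without overlap for 15 and lower without overlap for 17, at least 2 probes were so for 19 and 30, and probes of 4 genes differed without overlap in opposite directions. Map3k6, a kinase of stress signalling, differed by 0.30 on both probes (adjusted p = 0.219 and 0.228). Myl6, a myosin light chain, differed by 0.18 and 0.19, Rps15, a ribosomal protein, by 0.16 and 0.20, and Uxt, a prefoldin-like chaperone, by 0.17 and 0.16. On the lower side Ptpn5, the striatum-enriched phosphatase STEP, differed by -0.35 and -0.14 (adjusted p = 0.149 and 0.225), and Sik3, a salt-inducible kinase, by -0.21, -0.17 and -0.24 on 3 probes (adjusted p = 0.149, 0.188 and 0.259). The Sik3 probes read 4.92 to 4.99, 4.92 to 4.97 and -1.86 to -1.76 on the standard arrays and 4.56 to 4.84, 4.74 to 4.83 and -2.10 to -1.99 on the enriched arrays.

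All 4 differences between an enriched and a standard pool reached 1.5-fold for 4 probes (0.0184%), 2 higher and 2 lower (0.00921% each), also named after their values were seen. Besides Prl these were Chil6 (BC051070 on the array), a chitinase-like protein, with 0.94, Nlrp1a, an inflammasome sensor, with 1.17, and Lrriq4 with -0.67, at adjusted p from 0.0883 to 0.145. Chil6 read -1.38, -3.36, -3.06 and -2.30 against -0.94, -2.51, -1.64 and -1.28, and Nlrp1a read -4.88, -5.42, -5.47 and -5.05 against -3.21, -4.96, -2.48 and -5.47. In both, duplicate arrays of one pool stood further apart than the housing means. Nlrp1a was high on EE-C 1 and EE-DE 1 only, with EE-DE 2, at -5.47, level with the lowest standard array. Chil6 ran from -2.51 to -0.94 within the EE-C pool, with EE-C 1 the highest. A difference of 1.5-fold in each air treatment was reached by 7 probes (0.0322%), 5 higher (0.023%) and 2 lower (0.00921%).

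The largest mean difference of all, 2.03 for 5430401F13Rik, rested on EE-C 2, which read 3.84 where the other 7 arrays had -3.69 to -2.57. Ccnt1 (1.2, EE-C 2 at 5.03), Kdm5d (1.27, EE-DE 1 at 0.28) and 2810417H13Rik (-1.04, EE-C 1 at 0.40) likewise rested on 1 array each, so that a mean difference of 1.5-fold alone was a poor guide to a difference shared by all arrays.

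A further 12 probes were well above background on all 4 standard arrays and on no enriched array, and no probe had the reverse pattern. The enriched arrays include EE-DE 1, on which 56.7% of spots were well above background against 68.0 to 70.6% elsewhere, so fewer probes could be above background on all 4 enriched arrays, and the probes were selected for being high in standard pools. Their differences are bounds, since the enriched level was not well above background. For 9 of them the standard level was at least 1.02-fold to 1.49-fold higher, with Pdcd1, an inhibitory receptor of T cells, at least 1.49-fold, and for Vmn1r212, Serpinb1c and Cdca2 no fold can be given. The bound of Pdcd1 rested in part on C-C 1, which read -4.19 where the other standard arrays had -5.58 to -5.00.

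The share of probes with arrays that did not overlap varied with place on the array. When the array was split into 4 equal blocks, the higher share ran from 2.15 to 6.16% and the lower share from 2.87 to 3.89%. When probes were ranked by mean level and split into 5 equal classes, the SD of the housing difference was 0.169 in the dimmest and 0.0666 in the brightest class, while the higher share was 2.65% in the dimmest and 5.23% in the brightest class. With the GC content of the probe the higher share went from 2.94% to 5.87%, and the lower share stayed between 3.12 and 3.61%. The part of array position and base composition in the differences was not tested, and both lie within the slide columns that coincide with housing.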

How the data were processed

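Total RNA of the olfactory bulb was combined into 1 pool for each of 4 groups, and each pool was labelled with Cy3 and hybridised to 2 one-colour arrays of 62976 spots. The deposited intensity values came from Agilent Feature Extraction 10.7.3.1 and, per the file headers, were background-corrected and detrended within each array but not scaled between arrays. The deposited flags of spot quality from the same program were used as filters. The authors also deposited a log2 table, scaled for each array and centred for each probe, with details not given in the sources used here; 99.4% of 21433 probes in it lay within 0.02 of the values computed here on all arrays (largest difference 0.549), and it served as an alternative.

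Processed signals were taken to log2 minus the 75th percentile of the noncontrol spots of the array (644 to 716 signal units). Of 59305 noncontrol spots, 35736 had a GenBank or RefSeq accession, and 23983 were well above background without outlier flags on all arrays. Spots of one probe were averaged, which gave 21711 probes and 16486 gene names. Through RefSeq, 19432 of 20134 tested probes with an accession were matched, and 17454 symbols equalled the array's name, which is the name used. The duplicate arrays of a pool were averaged, and limma 3.58.1 (R 4.3.3; lmFit and eBayes with an intensity trend) was fitted to the 4 pool means with housing and air as terms, leaving 1 residual degree of freedom beside 6.60 from the prior. P-values were adjusted by the Benjamini-Hochberg method over all probes and called under 0.05. The residual error behind them is how far the housing difference varied between the 2 airs, with a prior from all probes. A shift common to the 2 pools of a housing, which share rearing cages and a slide column, is not in that error. The number of arrays limits the precision. Python 3.11.15, pandas 2.3.3, numpy 2.4.6 and matplotlib 3.10.9 were used. The fit was also run on simulated pools with independent noise, which do not mimic the shared rearing cages or the slide column.

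The members and the 35 gene lists were chosen with earlier results of these data known. A list was described with 1 probe a gene, the one with the highest mean value, by counts and by its median. Genes named were up to 15 rises and 15 falls of the largest difference among probes whose arrays did not overlap, every called probe, up to 4 genes of each list, the genes of the RT-PCR list and up to 6 probes a direction that were above background in one housing only, and others are named as chosen after their values were seen or to complete a list. Bounds for probes above background in one housing were taken against the higher of the dim probe's own signal and the lowest signal well above background on each array. In all, 31 other settings were tried, of which 3 were chosen after seeing the data. Promoter sequences were taken from RefSeq (GRCm38.p6) and probe positions (mm9) from the array files. The replicate numbers repeat a pool's RNA, follow the slide row within an air treatment, and were not used to pair samples.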

Additional observations from a re-analysis of the deposited data

Results flagged for a closer look

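Among 337 groups of 4 arrays of the named genes, 1 array stood apart from the other 3 of its housing in 23, where chance alone flags about 1 in 20 groups. On the standard arrays these were C-C 2 for Otog (-4.79, others -3.98 to -3.82) and 9130019O22Rik (-4.85), C-C 1 for Cftr (-3.59), Retnlg (-3.64, others -5.09 to -4.95) and Cox7c (4.90), C-DE 1 for Ptprg (-2.68) and Siglech (6.95, others 7.16 to 7.19), and C-DE 2 for Kl (-3.84). On the enriched arrays EE-DE 1 stood apart for Ptprg (-1.03, others -2.29 to -2.17), A730020M07Rik (-2.85), Psmb8 (-0.23), Cd74 (0.39, others 0.03 to 0.04), Nfkbia (2.79), Txnrd1 (2.53) and Kdm5d (0.28). EE-C 1 did so for Etv1 (5.02), Folr1 (-3.30), Aqp4 (3.05), Nlgn1 (0.70) and Rpl3 (7.12, others 6.79 to 6.82), EE-C 2 for Obp1a (1.00, others -2.23 to -1.97) and Sdad1 (1.82), and EE-DE 2 for Ddx3y (1.34).

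For 3 genes the arrays of one air treatment all moved one way by housing and those of the other air the opposite way. Bpifb3, a gene of olfactory mucosa, differed by -2.05 in clean air and 0.47 in diesel exhaust, with 1 EE-C array only. Oxt, which encodes oxytocin, differed by -1.26 and 0.19, and Chmp4b by 0.052 and -0.076. These differences between the airs were not tested.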

How the results depend on the processing

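With 2 pools a side and 1 residual degree of freedom, the number of called probes depended strongly on the setting, whereas no called direction reversed. Among genes that were not called, differences near 0 changed sign in some settings, as for Npas2 (0.03, and -0.01 without EE-C 1). Against 2 called probes (2743 at an unadjusted p under 0.05), limma called 280 with normexp background correction, 20 with quantile normalization, 89 when arrays were scaled on the median instead, 1097 with 8 arrays and the pool as a random block, 18 with the slide row as a block and 92 without EE-C 1 and EE-DE 1 together. It called 0 with the authors' log2 table (2363 unadjusted), with the EE-C 1 corner kept (2606), with all noncontrol spots (3809), without outlier flags (2700), with housing alone in the model (1978) and without the intensity trend (2195). Leaving out 1 array or 1 pool gave 0 to 57, with 0 without EE-DE 2.

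Dbp kept its direction in every setting. Its 2 probes, at 0.61 and 0.54, lost the call with the authors' table (0.61 and 0.55, adjusted p = 0.382 for both), the corner kept (0.144 for both), all noncontrol spots (0.0706 and 0.0978), no outlier flags (0.0546 and 0.0551), housing alone (0.149 and 0.174) and no trend (0.467 for both). With 1 array or pool left out they ranged from 0.53 to 0.69 and from 0.45 to 0.64.

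With replicate number as a block (8 arrays, pool as random block), 506 probes were called. Deviations of same-numbered arrays correlated by 0.145 between C-C and EE-C and by 0.122 between C-DE and EE-DE, whose numbers share a slide row, and by -0.158 to 0.00981 between other pools, so the numbers pair no samples across all groups. The correlation of duplicate arrays was -0.316 in that fit and -0.351 without the block, below 0, and fits on 8 arrays take duplicates for more than 1 sample.

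The 68 probes at 1.5-fold became 9 at 2-fold, 21 with normexp, 320 with spots positive and significant, 181 with spots above background in 1 housing, 19 among the brighter 75% and 128 with all spots, and 58 to 121 with an array or pool left out. The 4 with all pool differences at 1.5-fold became 2, 0, 28, 17 and 0 under the first 5 of these, and 3 to 62. The 7 at 1.5-fold in each air became 2, 0, 65, 36, 1 and 17, and 6 to 24, a value that cannot be had with a pool left out. The 1632 probes with arrays not overlapping became 2854 with normexp, 4391 without EE-C 1 and EE-DE 1, and 2315 to 4816 with an array or pool left out, where fewer arrays must separate. The median of immediate early genes ranged from 0.11 to 0.29. The cause of the other changes was not tested. Dim probes varied most, with an SD of the difference of 0.169 in the dimmest of 5 equal classes, and their part in each count was not tested.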
